A study of Mus musculus with 6 samples.

Results

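The 9 genes Myod1, Myog, Acta1, Actc1, Tnnt2, Tnnc1, Mylpf, Des and Chrna1, which mark skeletal and cardiac muscle cells, were measured in mouse embryonic fibroblasts of 6 genotypes. They were chosen by name, as markers of myogenic cells that a fibroblast culture can hold, and all 9 were found among the 25793 genes of the count tables. Of the 9, 8 reached 1 CPM (count per 1e6 of the scaled library size) in at least 1 library, and Myod1 did not. In skeletal muscle, the basic helix-loop-helix factors MyoD (Myod1) and myogenin (Myog) bind E-boxes in the promoters of muscle genes, MyoD in dividing myoblasts and myogenin when they begin to fuse into myotubes. The genes they act on include those for the thin filament, the myosin light chains and the acetylcholine receptor of the muscle membrane. Actc1, Tnnt2 and Tnnc1 are also main thin filament genes of the heart, and the promoters of striated muscle actins carry a CArG box, the site bound by serum response factor.

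Primary fibroblasts were grown from E13.5 embryos of matings between mice heterozygous for knockout alleles of Sptbn1, the gene of beta-II spectrin (β2SP in the labels), and of Smad3, a transcription factor that carries TGF-beta signals. There was 1 library of total RNA for each genotype. The labels name a heterozygous (β2SP+/-) and a homozygous (β2SP-/-) Sptbn1 knockout. They also name the heterozygous (SMAD3+/-) and homozygous (SMAD3-/-) Smad3 knockout, a double heterozygote that carries 1 mutant allele of each gene, and wild type (WT) cells. All cells were cultured in medium with 10% fetal bovine serum. The sources used here do not give how many embryos each library holds. With 1 library per genotype every difference below is between libraries, with no replicate check.

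Gene counts per library ran from 6856680 to 31125055. Of the uniquely placed reads, 80.1% fell on genes in the SMAD3-/- library and 81.2% in the double heterozygote, against 40.9 to 43.3% in the other 4. Structural and nuclear RNAs (ribosomal, histone and others) took 1.67% of gene counts in SMAD3-/- and 0.267% in the double heterozygote, against 10.3 to 12.2% in the other 4. Reads ambiguous between genes were 0.025% of all records in SMAD3-/- and 0.827% in the double heterozygote, against 0.363 to 0.413% in the other 4. Spnb2, the older symbol of Sptbn1 used in the files, stood at 75.5% of its WT level in β2SP+/- and 54.3% in β2SP-/-. Smad3 ran against the labels: relative to WT it stood at 149% in SMAD3+/-, 199% in SMAD3-/- and 381% in the double heterozygote. Whole-gene counts need not show the loss of a single exon, and the removed exons are not named, so genotypes below are called as labelled. Only the SMAD3+/- library had the X-inactivation RNA Xist at a high level (2747 CPM, against at most 16.3 CPM in the other 5), so sex and genotype cannot be told apart in its comparisons. Fibroblast markers (12 genes) summed to between 19862 and 50810 CPM. The heart factor genes Nkx2-5 and Irx4 and the skeletal muscle factor gene Myf6 had 0 reads in all 6 libraries.

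Myod1 was close to the limit of detection in every library. It had 3 reads (0.442 CPM) in β2SP+/-, 0 reads in β2SP-/-, 4 reads (0.388 CPM) in SMAD3+/-, 10 reads (0.444 CPM) in SMAD3-/-, 2 reads (0.0637 CPM) in the double heterozygote and 4 reads (0.354 CPM) in WT. The 0 reads in β2SP-/- allow up to 0.448 CPM, taking 3 reads as the limit. No neighbouring pair in the order of Myod1 levels was separated by its interval. Further apart, SMAD3-/- was 6.97-fold above the double heterozygote (1.49 to 65.5), on 10 and 2 reads. Intervals here are exact 95% intervals of a ratio of scaled counts. They cover counting error only, because each genotype had 1 library and no replicate spread could be measured. These reads carry no molecular identifiers, so copies of one molecule count as several. The intervals can therefore be too narrow even for counting error.

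Myog, the gene of myogenin, was found mainly in the SMAD3-/- library. It had 53 reads (2.35 CPM) in SMAD3-/-, 5 reads (0.159 CPM) in the double heterozygote, and 0 reads in β2SP+/-, β2SP-/-, SMAD3+/- and WT. With 3 reads set as the limit in WT, Myog was at least 8.87-fold higher in SMAD3-/- than in WT. Against the double heterozygote, the deepest library, it was 14.8-fold higher (interval 5.95 to 47.4). In bulk RNA of this kind, fewer cells of a type and less RNA per cell cannot be told apart, so these values do not say how many myogenic cells the cultures held.

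Chrna1 encodes the alpha subunit of the muscle acetylcholine receptor, which receives the motor nerve's signal. It had 0.294 CPM (2 reads) in β2SP+/-, 0.598 CPM in β2SP-/-, 0.775 CPM in SMAD3+/-, 2.89 CPM (65 reads) in SMAD3-/-, 0.223 CPM (7 reads) in the double heterozygote and 0.796 CPM (9 reads) in WT. SMAD3-/- stood above all others, and the other 5 followed in an order in which no neighbours were separated. Further apart in that order, the double heterozygote lay below WT, at a ratio of 0.280 (0.0886 to 0.845), and below SMAD3+/-, at 0.288 (0.0888 to 0.908). Chrna1 was 3.63-fold higher in SMAD3-/- than in WT (1.80 to 8.28) and 13.0-fold higher than in the double heterozygote (5.94 to 33.5).

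The 250 bases before the start sites of Myog and Chrna1 are shown because these genes were, with Actc1 and Mylpf, the members that stood apart in SMAD3-/-. The sequences are from RefSeq on GRCm38.p6, which is not the build of the counts (mm9), and windows were found for 8 of the 9 genes. Capitals mark E-boxes (CANNTG, the same on both strands), counted from -1 at the base before the start site. Myog lies on the plus strand, chr1:134289754-134290003, with CACATG at -138 and CAGTTG at -12. Chrna1 lies on the minus strand, chr2:73580339-73580588, with CAGCTG at -92 and -44 and CAGGTG at -73.
Myog: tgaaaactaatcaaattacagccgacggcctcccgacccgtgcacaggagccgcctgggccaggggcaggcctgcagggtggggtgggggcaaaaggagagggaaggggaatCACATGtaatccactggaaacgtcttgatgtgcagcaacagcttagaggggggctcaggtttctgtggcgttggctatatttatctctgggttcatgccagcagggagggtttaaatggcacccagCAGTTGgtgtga
Chrna1: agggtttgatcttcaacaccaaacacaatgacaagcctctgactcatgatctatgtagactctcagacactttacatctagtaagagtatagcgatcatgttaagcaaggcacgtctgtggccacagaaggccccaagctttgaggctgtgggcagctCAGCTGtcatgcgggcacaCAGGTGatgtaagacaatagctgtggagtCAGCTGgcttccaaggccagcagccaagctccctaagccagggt

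An E-box was present in 66.2% of 32851 promoter windows of this length, so its presence alone is common. At least 1 CAGCTG E-box was present in 13% of the windows, and a pair in one window, as in Chrna1, in 1.26%. Myog and Actc1 had no CAGCTG, and Acta1, Mylpf and Des had 1 each. Tnnt2 also had 2 CAGCTG matches in 1 of its windows, and its levels followed another order. Such matches describe the sequence and are not binding sites.

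The striated actins differed from each other. Acta1, the skeletal alpha-actin of the thin filament, had 2.80 CPM in β2SP+/-, 3.14 CPM in β2SP-/-, 46.9 CPM (484 reads) in SMAD3+/-, 35.0 CPM (788 reads) in SMAD3-/-, 3.63 CPM in the double heterozygote and 2.83 CPM (32 reads) in WT. SMAD3+/- and SMAD3-/- were therefore both high, and the other 4 lay close together with no neighbours separated. Acta1 was 16.6-fold higher in SMAD3+/- than in WT (11.6 to 24.5) and 12.4-fold higher in SMAD3-/- than in WT (8.69 to 18.2). The order of the high pair was resolved by depth, with SMAD3-/- at 0.746 of SMAD3+/- (0.666 to 0.837). Of the 50-base stretches of the Acta1 transcript, 2.22% also occur in transcripts of other actins and their pseudogenes, among them Actb and Actg1. For Chrna1 the share was 3.02%, with stretches found in many unrelated transcripts, and for the other 7 members it was 0%.

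Actc1, the alpha-actin of the heart and of embryonic skeletal muscle, was high in SMAD3-/- and not in SMAD3+/-. It had 0.736 CPM in β2SP+/-, 1.20 CPM in β2SP-/-, 0.678 CPM (7 reads) in SMAD3+/-, 6.31 CPM (142 reads) in SMAD3-/-, 0.892 CPM (28 reads) in the double heterozygote and 0.177 CPM (2 reads) in WT. WT had the lowest level of the 6, though not separated from SMAD3+/-. The double heterozygote was 5.04-fold above WT (1.27 to 43.7) and β2SP-/- 6.76-fold above it (1.35 to 65.3), with intervals clear of 1. The fold over WT was 35.6 in SMAD3-/-, with a wide interval of 9.69 to 297 because of the 2 WT reads. SMAD3-/- was 9.30-fold above SMAD3+/- (4.40 to 23.5) and 5.28-fold above β2SP-/-, the next library down (2.61 to 12.5).

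The promoters of both actins are shown because each holds a CArG box while their levels differed in SMAD3+/-. Capitals mark E-boxes and the CArG box, counted only as an exact match to CCWWWWWWGG, where W is A or T. Acta1 lies on the minus strand, chr8:123894776-123895025, with E-boxes at -238 and -221 and the CArG box at -73. Actc1 lies on the minus strand, chr2:114052876-114053125, with the CArG box at -47 and no E-box in the window.
Acta1: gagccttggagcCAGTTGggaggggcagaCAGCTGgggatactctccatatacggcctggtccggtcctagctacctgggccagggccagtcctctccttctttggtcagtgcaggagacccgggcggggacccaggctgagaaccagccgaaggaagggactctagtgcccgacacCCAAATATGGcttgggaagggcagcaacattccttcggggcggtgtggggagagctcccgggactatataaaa
Actc1: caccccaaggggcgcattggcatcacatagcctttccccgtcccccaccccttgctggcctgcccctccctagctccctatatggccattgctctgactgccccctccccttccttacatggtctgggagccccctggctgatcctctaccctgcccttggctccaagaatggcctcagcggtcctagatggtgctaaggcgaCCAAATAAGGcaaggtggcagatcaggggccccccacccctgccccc

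A CArG box occurred in 1.47% of the 32851 windows. Of the 8 muscle genes with a window, only Acta1 and Actc1 had one. Of 11 smooth muscle genes with a window, 2 had one (Myl9 and Cnn2), and Acta2 and Cnn1 had no exact match in this stretch. Boxes that depart from the exact pattern were not counted, so a window without a match can still hold a CArG box.

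**Figure D1:**
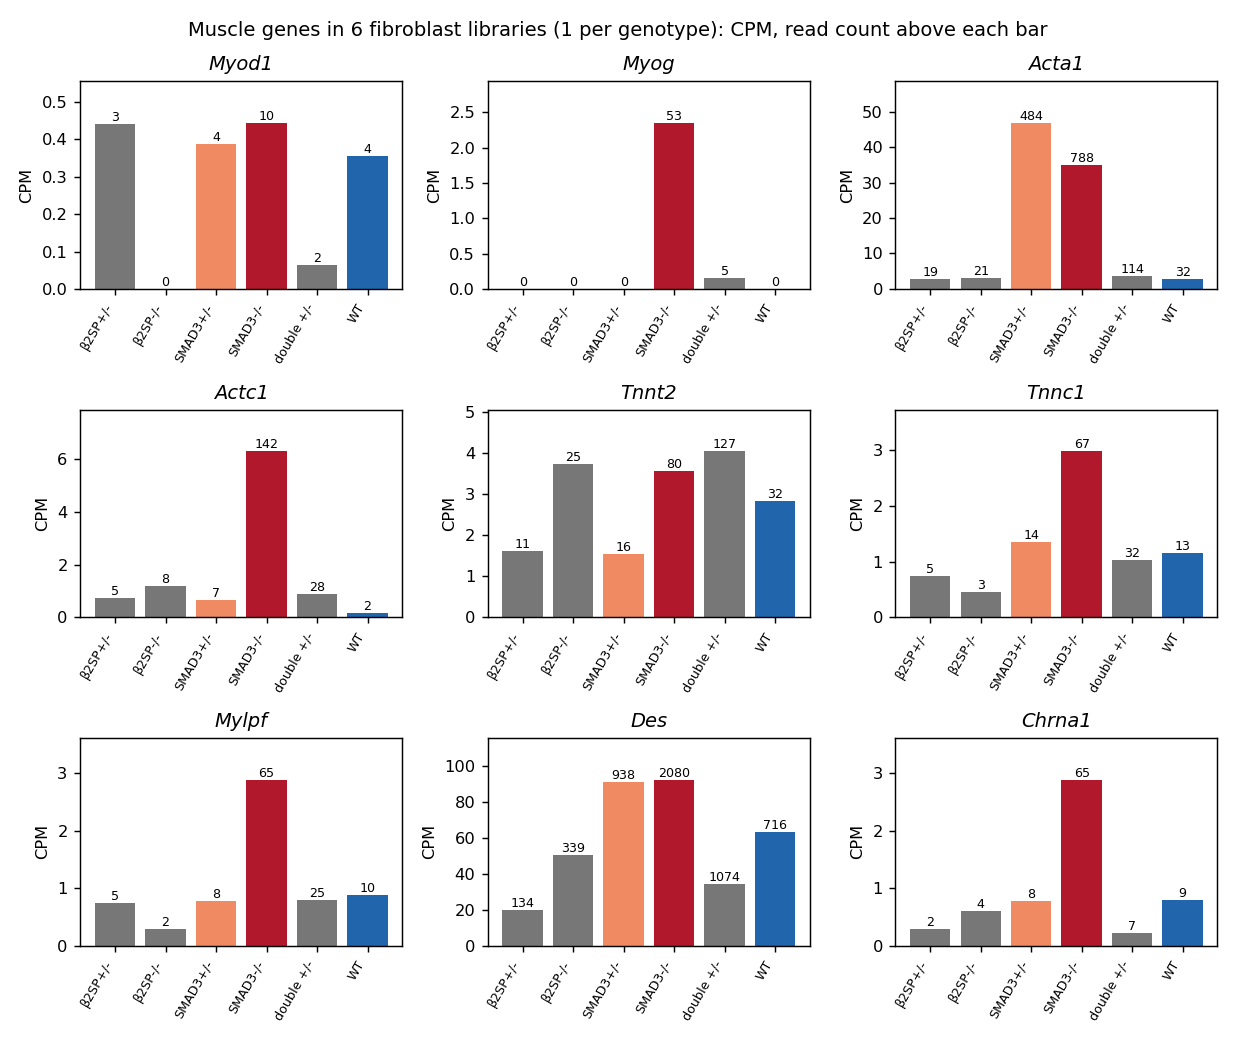
CPM (vertical axes, each from 0) of the 9 muscle genes in the 6 libraries, 1 bar per library, with the read count above each bar. Myog, Actc1, Mylpf and Chrna1 have 1 tall bar, SMAD3-/-, while Acta1 has tall bars in SMAD3+/- (46.9 CPM) and SMAD3-/- (35.0 CPM) and Tnnt2 has none that stands apart.

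Mylpf, the fast skeletal regulatory myosin light chain, had 0.736 CPM in β2SP+/-, 0.299 CPM (2 reads) in β2SP-/-, 0.775 CPM in SMAD3+/-, 2.89 CPM (65 reads) in SMAD3-/-, 0.796 CPM (25 reads) in the double heterozygote and 0.885 CPM (10 reads) in WT. SMAD3-/- was again the one high library. It was 3.26-fold above WT (1.67 to 7.12), the next level down. The other 5 could not be ordered.

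Tnnc1, the calcium-binding troponin C of slow and cardiac muscle, had 0.736 CPM in β2SP+/-, 0.448 CPM (3 reads) in β2SP-/-, 1.36 CPM in SMAD3+/-, 2.98 CPM (67 reads) in SMAD3-/-, 1.02 CPM in the double heterozygote and 1.15 CPM (13 reads) in WT. It followed the same order at the top, with SMAD3-/- 2.19-fold above SMAD3+/- (1.22 to 4.23). The ratio of SMAD3-/- to WT was 2.59 (1.42 to 5.11), which did not clear 1.5-fold over its whole interval. With total counts as the scaling it did.

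Tnnt2, the cardiac troponin T that anchors troponin to tropomyosin, did not share this order. Its levels were 1.62 CPM in β2SP+/-, 3.74 CPM in β2SP-/-, 1.55 CPM in SMAD3+/-, 3.55 CPM in SMAD3-/-, 4.04 CPM (127 reads) in the double heterozygote and 2.83 CPM (32 reads) in WT. No neighbouring levels were separated, and SMAD3-/- and WT differed by 1.26-fold (0.823 to 1.96). Further apart, the double heterozygote was 2.50-fold above β2SP+/- (1.35 to 5.13), and SMAD3-/- was 2.29-fold above SMAD3+/- (1.33 to 4.20).

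Des, the gene of the intermediate filament desmin that links myofibrils and is also made in smooth muscle, had the most reads of the 9. It had 19.7 CPM in β2SP+/-, 50.7 CPM in β2SP-/-, 90.9 CPM in SMAD3+/-, 92.4 CPM (2080 reads) in SMAD3-/-, 34.2 CPM in the double heterozygote and 63.3 CPM (716 reads) in WT. Every neighbouring pair in the order was separated except SMAD3-/- and SMAD3+/-, whose ratio was 1.02 (0.941 to 1.10). Against WT, Des was lower in β2SP+/- at a ratio of 0.312 (0.257 to 0.375) and in the double heterozygote at 0.540 (0.491 to 0.594). Its ratio of 1.46 in SMAD3-/- over WT (1.34 to 1.59) lay short of the 1.5-fold rule used below.

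Per kb of exon, the levels can be compared between genes. In SMAD3-/-, Des (30.5 CPM per kb) and Acta1 (24.2 CPM per kb) lay above the other members, of which Actc1 (4.28), Tnnc1 (4.13) and Mylpf (3.53) came next and Myod1 (0.239) last. In WT, Des (20.9 CPM per kb) stood alone, with Tnnt2 at 2.24, Acta1 at 1.96 and Myog at 0.

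For each pair of libraries, a gene was called higher or lower when its whole interval lay beyond 1.5-fold, among the 14824 genes that reached 1 CPM anywhere. In SMAD3-/- against WT, 5 of the 9 were called higher (Myog, Acta1, Actc1, Mylpf and Chrna1) and 0 lower, where 24.2% of all genes were called higher and 25.2% lower. With 0.5 counts added, the median log2 ratio of the 8 members that reached 1 CPM was 1.72, beside 0.05 over all genes that did. All 9 ratios were above 1, but the intervals of Myod1 (0.362 to 5.48) and Tnnt2 (0.823 to 1.96) spanned 1. Myog, Mylpf and Chrna1 reached 1 CPM in SMAD3-/- alone, so they entered the comparison through that library. Nothing is therefore read from the count of 5 or from the median. Mylpf and Chrna1 lost the call, here and against SMAD3+/-, when the fold asked was 2 in place of 1.5 or when the interval was widened by the spread of the fit over all genotypes.

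The double heterozygote had a share of reads on genes near that of SMAD3-/-. Its share of structural RNAs was lower and its share of ambiguous reads higher. Against the double heterozygote, 7 of the 9 were called higher in SMAD3-/- (Myog, Acta1, Actc1, Tnnc1, Mylpf, Des and Chrna1) and 0 lower. Of all genes, 19.8% were called higher and 23.3% lower there. The same 7 were called higher in SMAD3-/- against β2SP+/- (22.8% of all genes, 23.8% lower) and against β2SP-/- (22.8% of all genes, 24.2% lower), with 0 lower in both. Against SMAD3+/-, 4 were higher (Myog, Actc1, Mylpf and Chrna1; 22.7% of all genes) and 0 lower (22.3%). Those 4 stood above each of the other 5 libraries, where 8.56% of all genes did. As 3 of the 4 (Myog, Mylpf and Chrna1), which are also among the 7, passed the level filter through SMAD3-/- alone, nothing is read from these counts. These comparisons share the SMAD3-/- library and are not separate evidence.

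**Figure D2:**
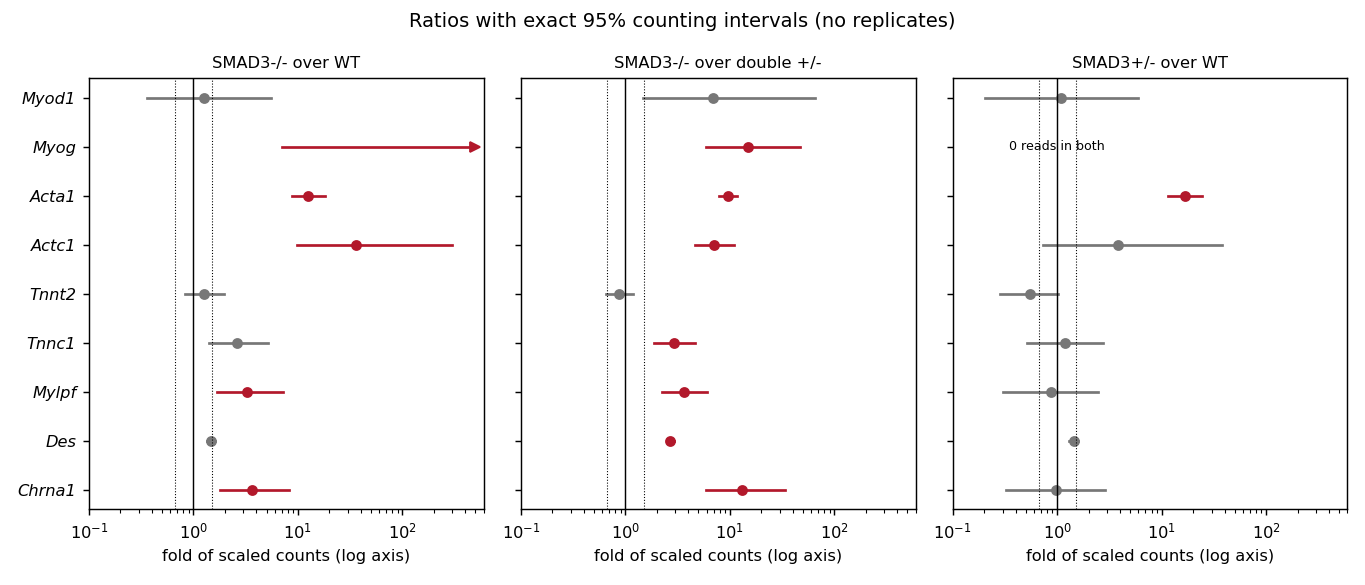
Ratios of scaled counts (log axis) of the 9 genes with exact 95% counting intervals, for SMAD3-/- over WT, SMAD3-/- over the double heterozygote and SMAD3+/- over WT; red marks intervals wholly beyond 1.5-fold (dotted lines), and the arrow marks Myog with 0 WT reads. SMAD3-/- has 5 red genes against WT and 7 against the double heterozygote, and SMAD3+/- has Acta1 alone.

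The other comparisons moved few of the 9. In SMAD3+/- against WT, Acta1 alone was called higher (1.64% of all genes) and 0 were lower (4.45%). In β2SP+/- against WT, Des alone was lower (1.19% of all genes) and 0 were higher (0.634%). In β2SP-/- against WT, 0 were called, where 0.648% of all genes were higher and 0.411% lower. Against β2SP+/-, Des was 2.57-fold higher in β2SP-/- (2.10 to 3.16), the only member called there, where 0.924% of all genes were higher and 0.378% lower. With widened intervals both calls of Des were lost, and Acta1 in SMAD3+/- stayed called. In these single libraries Des was lower in β2SP+/- than in β2SP-/-. Its course with the number of Sptbn1 mutant alleles cannot be read from 1 library each.

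In the double heterozygote against WT, Des alone was lower (19.1% of all genes) and 0 were higher (21.6%). Against SMAD3+/-, the double heterozygote had Acta1 at a ratio of 0.0774 (0.0626 to 0.0951) and Des at 0.376 (0.344 to 0.411), both called lower (18.9% of all genes), and Tnnt2 called higher at 2.61 (1.55 to 4.70; 22.5% of all genes). The call of Tnnt2 was lost with DESeq2 size factors, with totals without structural RNAs, with a 2-fold rule, with widened intervals and with a 5 CPM filter, which Tnnt2 did not pass. With widened intervals, the call of Des was lost here and against WT, and that of Acta1 was kept. Against β2SP+/-, 0 of the 9 were called, where 21.1% of all genes were higher and 18.2% lower. The rise of Acta1 in the SMAD3+/- library was not present in the double heterozygote, which has the same labelled number of Smad3 mutant alleles. These libraries also differed in Xist (2747 against 0.0637 CPM) and in uniquely placed reads on genes (43.3 against 81.2%). Genotype cannot be told apart from sex or from this library difference here.

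If 1 mutant allele of each gene multiplied a level independently, the double heterozygote would equal the product of both single changes. On the log2 scale, Acta1 lay below that product, at -3.68 (-4.55 to -2.82), and was called, as 16.5% of all genes were in this direction. Tnnt2 lay above it at 2.11 (0.89 to 3.33), with 18.5% of all genes called in that direction. The call of Tnnt2 was lost with a 2-fold rule. The intervals of the other 7 did not clear 1.5-fold. For Myog this interval ran from -5.91 to 8.15, so the depth could not show a departure. The differences in sex and in the share of reads on genes enter all these departures and cannot be told apart from genotype.

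The change per mutant allele was fitted across the 6 libraries with edgeR's quasi-likelihood test, which had 3 residual degrees of freedom and included 5 of the 9 genes (Acta1, Actc1, Tnnt2, Tnnc1 and Des). No gene of the 14091 tested was called for either gene's alleles (0% each), with 23 genes at an unadjusted p below 0.05 for Sptbn1 and 3311 for Smad3. SMAD3-/- and the double heterozygote had 80.1% and 81.2% of uniquely placed reads on genes, against 40.9 to 43.3% in the rest. The Smad3 term, here and in the DESeq2 fit below, cannot be cleanly told apart from this library difference. Actc1 had the lowest p of the 5 for both terms. Its log2 change per Smad3 mutant allele was 2.16 ± 0.58 (SE; edgeR adjusted p = 0.174) and per Sptbn1 mutant allele 1.15 ± 0.63 (SE; edgeR adjusted p = 0.9996). With DESeq2's Wald test, Actc1 was called per Smad3 allele (adjusted p = 0.0356), as were 2048 genes in all, and 0 genes were called per Sptbn1 allele. In that test 4325 genes for Smad3 and 59 for Sptbn1 had an unadjusted p below 0.05.

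Other skeletal muscle genes were examined by lists. Of 48 sarcomere and calcium handling genes, 18 reached 1 CPM in some library. In SMAD3-/- against WT, 6 were higher (Myh3, Tnni1, Mybph, Ryr1, Srl and Eno3; 24.2% of all genes) and 4 lower (Ttn, Unc45b, Pgam2 and Dmd; 25.2% of all genes). Of those 6, Myh3, Tnni1 and Ryr1 reached 1 CPM in SMAD3-/- alone and Mybph in the double heterozygote alone. In the double heterozygote against WT, 4 were higher (Myh3, Actn3, Mybph and Srl; 21.6% of all genes) and 4 lower (Ttn, Neb, Jph1 and Dmd; 19.1% of all genes). In β2SP+/-, β2SP-/- and SMAD3+/- against WT, 0 were called. Beside those shares of all genes, these counts are not read as a result about the list.

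Myh3, the embryonic myosin heavy chain, had 1 read in β2SP+/-, 3 in β2SP-/-, 0 in SMAD3+/-, 97 (4.31 CPM) in SMAD3-/-, 29 (0.924 CPM) in the double heterozygote and 1 (0.0885 CPM) in WT. Its ratio of SMAD3-/- to WT was 48.7 (8.54 to 1943), on a single WT read. Tnni1, the slow troponin I, had 58 reads (2.58 CPM) in SMAD3-/-, 10 in the double heterozygote, 2 in SMAD3+/-, and 0 in β2SP+/-, β2SP-/- and WT. It was at least 9.71-fold higher in SMAD3-/- than in WT. Mybph, a myosin-binding protein gene, was higher in the double heterozygote (36 reads, 1.15 CPM) than in WT (0 reads), by at least 4.32-fold, and had 16 reads (0.711 CPM) in SMAD3-/-. Ttn, the gene of the giant filament titin, had 3.15 CPM in SMAD3-/- and 0.892 CPM in the double heterozygote, against 13.1 CPM in WT.

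A few other skeletal muscle genes, chosen after their values were seen, had hardly any reads. Ckm, the muscle creatine kinase, had 2 reads in SMAD3-/- and 0 in the other 5 libraries. The satellite cell factor gene Pax7 had 3 reads in β2SP+/-, 1 in SMAD3+/-, 2 in WT and 0 in the others. Myf5, a factor of early myoblasts, had 4 reads in SMAD3-/- and 0 elsewhere.

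Among 17 regulators and fusion genes, 10 reached 1 CPM. In SMAD3-/- against WT, Six4 and Cdh15 were higher (24.2% of all genes) and Mef2a, Mef2c, Mef2d and Cdon lower (25.2%). Cdh15, the M-cadherin of myoblasts, had 40 reads (1.78 CPM) in SMAD3-/- and 2 reads (0.177 CPM) in WT, a ratio of 10.0 (2.60 to 85.8), and it reached 1 CPM in SMAD3-/- alone. Mef2c, a partner of myogenic factors, had 17.5 CPM in SMAD3-/- and 12.5 CPM in the double heterozygote, against 46.0 CPM in WT. The fusion gene Tmem8c (myomaker) had 1 read in β2SP+/-, 5 in SMAD3-/-, 2 in the double heterozygote and 0 in the others.

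In SMAD3+/- against WT, Cdon, a myoblast surface receptor gene, was lower, at 88.9 against 197 CPM (4.45% of all genes were lower). In the double heterozygote against WT, Boc was higher (21.6% of all genes) and Pax3, Mef2a and Mef2c were lower (19.1%). In β2SP+/- and β2SP-/- against WT, 0 of the 17 were called.

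Other genes of the nerve-muscle junction were examined beside Chrna1. Of 10 such genes, 2 reached 1 CPM (Lrp4 and Chrnb1), and 0 were called in any of the 5 comparisons with WT. Chrnb1, the beta subunit of the same receptor, had 2.84 CPM in SMAD3-/- and 3.01 CPM in WT. The embryonic gamma subunit gene Chrng had 5 reads in SMAD3-/-, 2 in the double heterozygote and 0 in the other 4.

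Heart muscle genes gave no common direction. Of 25, 10 reached 1 CPM. In SMAD3-/- against WT, Hand2 and Myl7 were higher (24.2% of all genes) and Tnni3, Pln and Hspb7 lower (25.2%). In the double heterozygote against WT, Hand2 was higher (21.6% of all genes) and Tbx20, Myocd, Pln and Hspb7 lower (19.1%). In β2SP+/- against WT, Gata4 and Hspb7 were lower (1.19% of all genes), in β2SP-/- Tbx20 was higher (0.648%), and in SMAD3+/- 0 were called.

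Myl7, the atrial myosin light chain, had 32 reads (1.42 CPM) in SMAD3-/- and 3 reads (0.265 CPM) in WT, a ratio of 5.36 (1.68 to 27.3), and it reached 1 CPM in SMAD3-/- alone. Hspb7, a small heat shock protein of heart and skeletal muscle, had 3.06 CPM in SMAD3-/- against 18.9 CPM in WT. In β2SP+/-, where Des was lowest, Gata4 (0.883 CPM) and Hspb7 (7.07 CPM) were also below WT (6.55 and 18.9 CPM).

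Smooth muscle and myofibroblast genes (14, all above 1 CPM) are shared by activated fibroblasts. In SMAD3+/- against WT, 3 were higher (Acta2, Cnn1 and Actg2; 1.64% of all genes) and 0 lower (4.45%). In SMAD3-/- against WT, 6 were higher (Acta2, Tagln, Cnn1, Actg2, Myh11 and Cnn2; 24.2% of all genes) and 2 lower (Mylk and Cald1; 25.2%). In the double heterozygote against WT, 0 were higher (21.6% of all genes) and 7 lower (Mylk, Lmod1, Tpm1, Tpm2, Myl9, Cald1 and Cnn2; 19.1%). In β2SP+/- Myh11 was lower (1.19% of all genes), and in β2SP-/- 0 were called. The median log2 ratio of the 14 to WT was 0.22 in SMAD3+/-, 0.54 in SMAD3-/- and -0.75 in the double heterozygote, beside 0.01, 0.05 and 0.06 over all genes.

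Actg2, the smooth muscle gamma-actin, was 2.60-fold higher in SMAD3+/- than in WT (2.41 to 2.81) and 2.52-fold higher in SMAD3-/- than in WT (2.35 to 2.71). Acta2, the smooth muscle alpha-actin, was 1.65-fold higher in SMAD3+/- and 1.75-fold higher in SMAD3-/- than in WT. Acta2 stood at 1189 CPM in the double heterozygote, against 2975 CPM in SMAD3+/-. Tagln, the transgelin gene, was high in SMAD3-/- alone (1769 CPM), with 262 CPM in SMAD3+/-, 358 CPM in the double heterozygote and 230 CPM in WT.

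**Figure D3:**
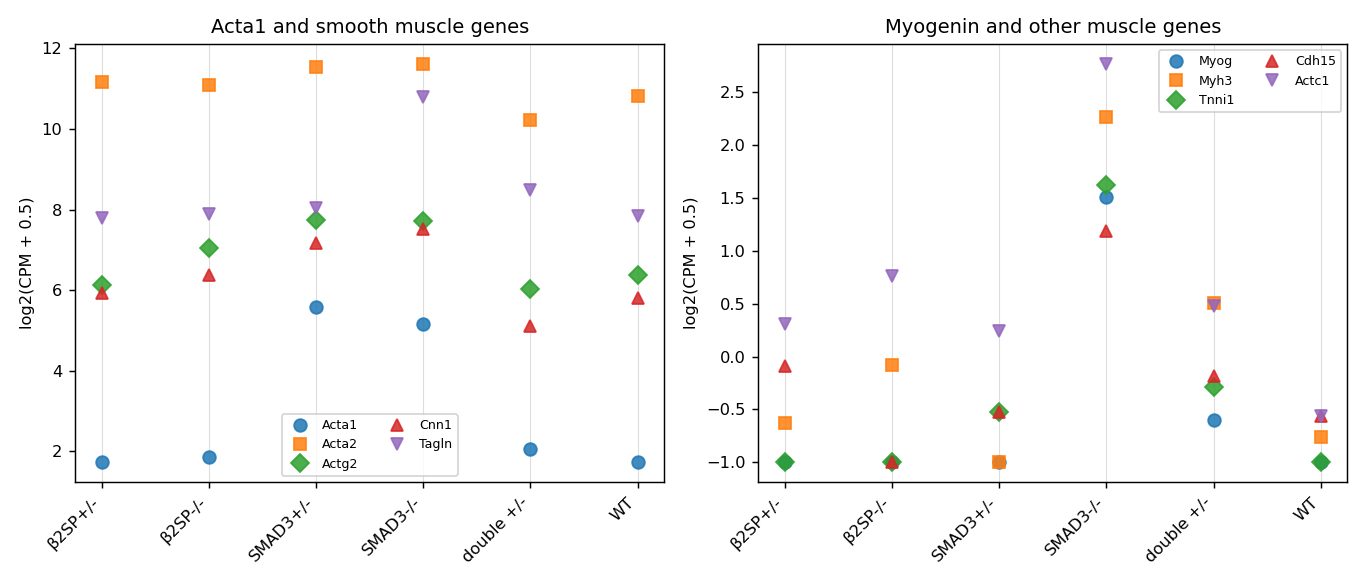
Levels as log2(CPM + 0.5) in the 6 libraries, with Acta1 and 4 smooth muscle genes on the left and Myog with 4 other muscle genes on the right, 1 point per gene and library. Acta1, Cnn1, Actg2 and Acta2 have their highest points in SMAD3+/- and SMAD3-/-, while the genes on the right have theirs in SMAD3-/- alone. The genes drawn are a selection, and Myog, Myh3, Tnni1 and Cdh15 reached 1 CPM in SMAD3-/- alone. Others of the same lists, among them Ttn, Dmd, Mef2c, Mylk and Cald1, were called lower in SMAD3-/- than in WT.

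Genes that restrain or partner the myogenic factors (16, of which 15 reached 1 CPM) moved in both directions. In SMAD3-/- against WT, Id1, Id2, Mdfi and Tcf3 were higher (24.2% of all genes) and Hey1, Zeb1, Snai1, Bhlhe41 and Tcf4 lower (25.2%). In SMAD3+/- against WT, Id1 and Twist2 were higher (1.64% of all genes) and Hey1 lower (4.45%). In the double heterozygote against WT, Twist2, Mdfi and Tcf3 were higher (21.6% of all genes) and Id4, Hey1, Hes1 and Tcf4 lower (19.1%), and 0 were called in β2SP+/- and β2SP-/-.

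Id1, which keeps E-proteins away from MyoD, had 28.4 CPM in SMAD3+/- and 65.9 CPM in SMAD3-/-, against 12.3 CPM in WT. It was highest in SMAD3-/-, as were 32.4% of the 14824 genes that reached 1 CPM. Mdfi, an inhibitor that binds MyoD-family proteins, had 8.71 CPM in SMAD3-/- and 13.4 CPM in the double heterozygote, against 2.48 CPM in WT. Hey1, a Notch target gene, had 0.872 CPM in SMAD3+/-, 0.933 CPM in SMAD3-/- and 2.01 CPM in the double heterozygote, against 7.17 CPM in WT.

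Markers of other cell types were counted in SMAD3-/- against WT beside the 24.2% of all genes called higher and 25.2% lower. All 10 macrophage genes were lower there than in WT, and their summed level was 62.4 CPM, against 1445 to 2293 CPM in the other 5. The cartilage collagen gene Col2a1 stood at 151 CPM in SMAD3-/-, against 3.36 CPM in WT, and of 6 cartilage genes (5 above 1 CPM) 2 were higher and 1 lower. Among 12 fibroblast genes, 2 were higher and 7 lower in SMAD3-/- than in WT, and 5 were higher and 1 lower in the double heterozygote than in WT (21.6% and 19.1% of all genes). Of 8 neural and glial genes, 6 reached 1 CPM, and 3 were higher and 3 lower in SMAD3-/-. Of 8 epithelial genes, 6 reached 1 CPM, and 2 were higher and 0 lower. Of 7 endothelial genes, 4 reached 1 CPM, and 0 were higher and 2 lower. In the neural, epithelial, endothelial and cartilage lists so few genes passed that the counts are given as values only. The part of these differences in the levels of the 9 muscle genes was not tested.

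The genes most alike in pattern were taken by Pearson's r of log2(CPM + 0.5) over the 6 libraries, among 7401 genes with at least 5 CPM in a library and a 2-fold range. For Acta1 they were LOC100503163 (r = 0.99), the chromatin protein gene Hmga2 (r = 0.99) and the calcium-binding protein gene S100a4 (r = 0.98). Hmga2 had 608 CPM in SMAD3+/- and 513 CPM in SMAD3-/-, against 185 CPM in WT. For Myog, Tubgcp2, Ank and Otub1 were nearest, at r of 0.9997, 0.9986 and 0.9977, and 451 genes (6.09%) reached 0.95. For Chrna1 they were Aif1l, Ing5 and Wdr5b (r = 0.99 each), and 75 genes (1.01%) reached 0.95.

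For Actc1 the nearest were Tfdp1, Zswim7 and Nek4, for Mylpf Sco1, Prps2 and Anubl1, and for Tnnc1 Hoxa5, Cdyl2 and Nop10. For Des they were Lce1g, Sbsn and St8sia4, with 2 genes at 0.95 or more, and for Tnnt2 Gprasp1, Plekha5 and Btbd11, with 1. The 6 points of each r share the libraries' preparation, depth and embryos, so a likeness of this kind is a description of these libraries. Between members, the highest r were 0.96 for Tnnc1 and Mylpf and 0.92 for Myog and Actc1. Pairs without Tnnt2 ran down to 0.12 (Myod1 and Actc1), with 0.34 for Actc1 and Des. Tnnt2 had r between -0.65 and 0.40 with the other 8. Myog had reads only in SMAD3-/- and the double heterozygote, so its r rests mainly on SMAD3-/-.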

How the data were processed

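Total RNA of 6 fibroblast cultures, 1 per genotype, was made into libraries from 1 ug with a TruSeq RNA kit, per the labels' protocols. The authors deposited raw read counts per gene, 1 table per library. Per the submitters' processing notes, the build was mm9 and the tools were TopHat2 2.0.10, HTSeq, FastQC, Trimmomatic and DESeq2, without roles; strand setting, annotation and read length are not given in the sources used here. The closing summary lines of each table (reads on no gene, 11.9 to 32.6% of all records, and others) were left out of sizes and tests.

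Library sizes were scaled by TMM in edgeR 4.0.16 (R 4.3.3; limma 3.58.1). CPM were computed from the deposited counts. Ratios carry exact Clopper-Pearson 95% intervals (scipy 1.17.1). A fold against a library with 0 reads used 3 reads per library as the floor. The departure of the double heterozygote used 0.5 added counts. The allele fit used edgeR's quasi-likelihood test (robust) on genes that reached 1 CPM in 2 or more libraries, Benjamini-Hochberg adjustment and a threshold of 0.05; DESeq2 1.42.0 was the alternative. Its spread (common biological coefficient of variation 0.467) holds embryo and preparation differences. Alternatives were other scalings, filters, a 2-fold rule, widened intervals, added counts, carriers against non-carriers and leaving out each library. The pair rule and the allele fit were also run on simulated data. The outcome is not given here, and nothing is read from it.

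The 9 genes, the 12 further lists (181 of 182 genes found) and the rules were chosen with earlier results of these data known. The naming rule took the 9 genes, the member with the lowest p in the allele fit, up to 6 genes a list (those called in most of the 5 comparisons with WT, then by level) and the 3 genes most alike to each member, without genes of Gm, Rik, Olfr or Vmn symbols. Other list genes named in the text, among them the remaining called genes and those near 0, were chosen after their values were seen. Exon lengths and shared 50-base stretches came from GENCODE transcripts on GRCm38, and promoter windows from RefSeq.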

Additional observations from a re-analysis of the deposited data

Results flagged for a closer look

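The ratios of Tnnt2 with the same labelled allele lay on opposite sides of 1 in different backgrounds, though 1 of the 4 ratios was called. With 1 Sptbn1 mutant allele, its log2 ratio was 1.38 in the double heterozygote against SMAD3+/- and -0.81 in β2SP+/- against WT. With 1 Smad3 mutant allele, it was 1.32 in the double heterozygote against β2SP+/- and -0.87 in SMAD3+/- against WT. The ratio to SMAD3+/- was the called one, and the intervals of β2SP+/- and SMAD3+/- against WT spanned 1. Both contrasts are the same difference among the same 4 libraries. Each value rests on 1 library a side, and the difference was not tested against any spread between samples. The double heterozygote also differed from the single heterozygotes in its share of reads on genes (81.2%, against 41.7% in β2SP+/- and 43.3% in SMAD3+/-), whose part in this was not tested.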

How the results depend on the processing

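Scaling by DESeq2 size factors, total counts or totals without structural RNAs left all recomputed member ratios inside their own intervals. The 280 values compared include those with widened intervals, where the ratio itself does not change. Each scaling shifts all ratios of a pair by the same small amount. No called ratio could therefore be reversed, and nothing is read from that. Ratios of the double heterozygote to β2SP+/- moved most, by -0.13 on the log2 scale with totals without structural RNAs. With intervals widened by the spread of the allele fit, the members called were 3 (Myog, Acta1 and Actc1) in place of 5 in SMAD3-/- against WT, 2 (Myog and Actc1) in place of 4 against SMAD3+/-, and 1 (Acta1) in place of 3 in the double heterozygote against SMAD3+/-. The single call of Des became 0 in β2SP+/- and the double heterozygote against WT and in β2SP-/- against β2SP+/-. Acta1 in SMAD3+/- against WT stayed called. With a 2-fold rule they were 3 in SMAD3-/- against WT, 2 against SMAD3+/-, 0 in the double heterozygote against WT, and 1 departure in place of 2. With a 5 CPM filter, which leaves out all members but Acta1, Actc1 and Des, they were 2 and 1 in SMAD3-/- against WT and SMAD3+/-. DESeq2's Wald test called 1 member (Actc1) per Smad3 allele in place of 0. Actc1 per Sptbn1 allele turned to -0.15 between carriers and non-carriers, in place of 1.15 per allele; the cause was not tested. As edgeR called 0 genes with all libraries, the fits without each library, with 0 members called, could show no loss; Actc1 was not tested without β2SP-/- or without SMAD3-/-. Comparisons of SMAD3-/- with the double heterozygote, β2SP+/- and β2SP-/- were added after seeing the data, and called 7 members each; the planned one with SMAD3+/- called 4. No paired analysis was possible because each genotype had 1 library and the labels give no replicate numbers. At the lowest depth, 3 reads are worth 0.448 CPM, which limits what can be said of Myod1 and Myog there.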
